A study of Mus musculus with 6 samples.

Results

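Semaphorins, plexins, Eph receptors, ephrins, Slits and Robos are the guidance cues and receptors first described on growing axons, and 58 genes of these families were followed in satellite cells of Magic-F1 and control mice. Members were all non-control probes whose gene name was Sema or Robo with a number, a plexin of the A, B, C or D type, Epha, Ephb, Efna, Efnb or Slit. This gave 61 tested and 44 untested probes for 58 genes, of 27827 gene names on the array. The names held 20 semaphorins, 9 plexins, 14 Eph receptors, 8 ephrins, and 7 Slits and Robos. Magic-F1 is an artificial agonist of the receptor MET, built from parts of hepatocyte growth factor (HGF). The tested samples were satellite cells, the stem cells of muscle fibres, from skeletal muscle of female mice homozygous for it (Magic-F1+/+), and the comparison samples were satellite cells of female control mice. All were taken in proliferation, with 3 samples and 3 single-colour Agilent arrays in each group. Titles of control samples contain MLC3F and those of Magic-F1 samples Omo, words that the labels leave unexplained. The labels also leave out the promoter that drives Magic-F1 and the age of the mice. Replicates are called biological in the labels, but no separate animals or cultures are named, and all samples of a group carry the same source name. P-values therefore cover the spread among these 6 arrays alone, and that spread may be technical.

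Semaphorins are secreted or membrane-bound ligands that act on plexins, and most secreted class 3 semaphorins need a neuropilin as co-receptor. Eph receptors are receptor tyrosine kinases that meet ephrins on the neighbouring cell, and both sides can signal. Slits are large secreted proteins that bind Robo receptors. Outside the nervous system these families guide cell contact and movement in vessels, immune cells and muscle. B plexins can associate with MET, and the class 3 ligand Sema3A is known to be secreted by rat satellite cells treated with HGF.

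The signal level at the 75th percentile of spots was between 340.682 and 356.106 on Magic-F1 arrays and between 274.774 and 291.98 on control arrays, and 49.2% to 52.0% of spots were well above background. Muscle markers were far lower in the Magic-F1 samples, though both groups are labelled satellite cells, and neutrophil markers were high in the control samples. The defining satellite cell genes Pax7, Pax3 and Myf5 stood well above background on 0 Magic-F1 arrays, and Pax3 and Myf5 on 0 control arrays. Myogenic expression was not absent, since 7 of the 8 tested markers of the list were well above background on all Magic-F1 arrays. Of 8 tested myogenic markers, 8 were lower, and the summed level of the list's genes on the array, in multiples of the 75th percentile, was 26.0 to 26.9 on Magic-F1 arrays and 428 to 461 on control arrays. Macrophage markers were higher for 10 of 11 tested, with a summed level of 1330 to 1400 against 412 to 439. Lyz2, the marker called lower and also known from neutrophils, carried most of the control sum, and without it the sums were 1050 to 1100 against 68.6 to 72.7. In this list only Cd163 was not above background on any Magic-F1 array. Adipocyte markers were higher for 8 of 8 tested (470 to 499 against 59.7 to 66.6). Neutrophil markers were lower for 8 of 8 tested (0.207 to 0.228 against 586 to 632), and pericyte and smooth muscle markers were lower for 9 of 10 (290 to 302 against 1180 to 1230). On control arrays the neutrophil sum was above the myogenic sum, so the control samples too carried high levels of markers of other cells. Fibroblast markers were higher for 2 and lower for 6 of 9 tested (383 to 389 against 627 to 646). Schwann cell markers were higher for 2 and lower for 4 of 6 (128 to 132 against 66.5 to 73.6), and lymphocyte markers were higher for 1 and lower for 2 of 5 (0.232 to 0.311 against 0.286 to 0.421). In RNA of whole samples, fewer cells of a type and less RNA per cell cannot be told apart. Marker genes differed between the same arrays on which the families are described here, and their part in the changes was not tested.

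In Magic-F1 cells 7 of 9 plexins were higher, and 5 of 6 tested class 3 semaphorins and 6 of 9 tested Eph receptors were lower. Of the 58 genes, 46 had a tested probe, meaning that every array of one group or of both measured it well above background, and each such gene is described by its brightest tested probe. A gene was called at a Benjamini-Hochberg adjusted p under 0.05 in limma, adjusted over all 21190 tested probes of the array. Called were 37 of the 46 genes, or 80.4%, against 88.3% of all 14908 tested genes. Of the members 18 rose (39.1%, against 40.6% of all genes) and 19 fell (41.3%, against 47.7%). At least 2-fold changes came from 10 that rose (21.7%, against 24.2%) and 14 that fell (30.4%, against 28.4%). The families taken as a whole were thus near the share of the array, on which most genes differed. Among the 40 members whose probe was measured on all 6 arrays, 18 rose and 15 fell (45.0% and 37.5%), against 40.1% and 48.1% of such genes. Counted by probe, 26 of the 61 tested probes were higher and 24 were lower, against 41.3% and 46.4% of all tested probes (8749 and 9841, together 87.7%). With scaling to the spiked-in viral transcripts in place of the 75th percentile, 33 member probes were higher and 22 lower, against 10836 and 7350 of all probes. The median log2 change was -0.04 over the members and -0.15 over all tested genes, and the median size of the log2 change, sign aside, was 1.02 and 1.07. With spike-in scaling the median log2 change of all genes became 0.27 and that of the members 0.38. The values of the groups did not overlap for 38 members (82.6%, against 89.8% of all genes). The 37 called members had the same sign in the replicates of slide 1 and in the pair of arrays on slide 2. The calls came from these same arrays, so equal signs are no separate support. The like share over all called genes was not counted.

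**Figure D1:**
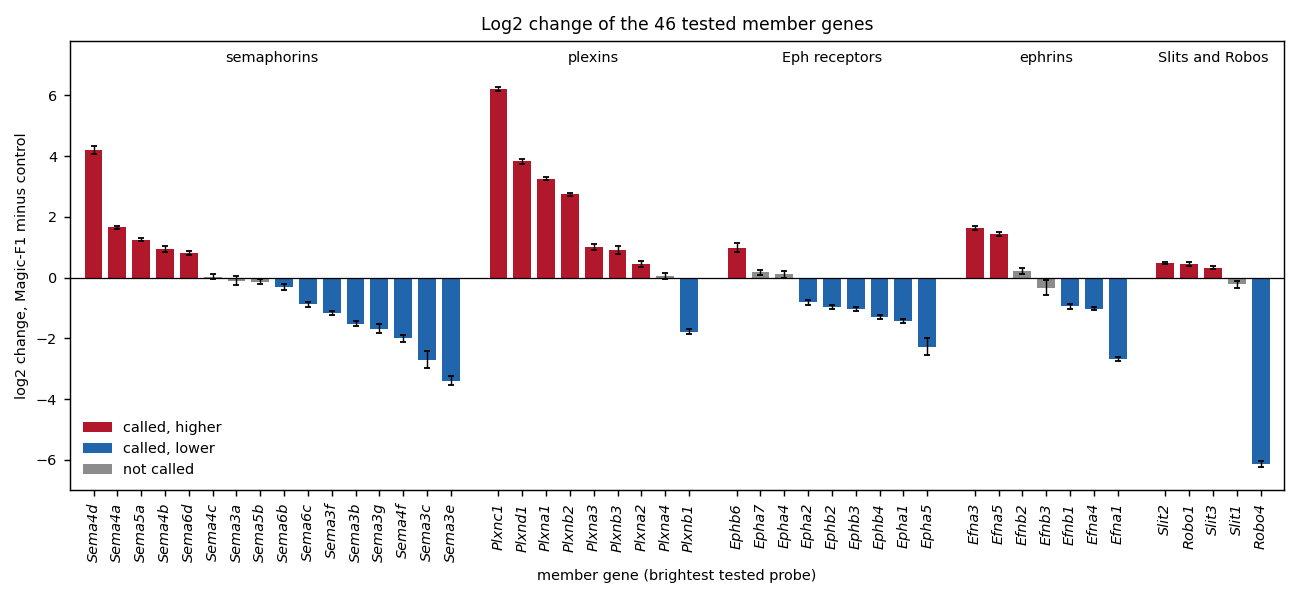
Log2 change, Magic-F1 minus control, of the 46 tested member genes, by family and sorted within it. Bars are the fitted change of the brightest tested probe, whiskers the standard error (3 arrays a group), and colours show the call. Of 9 plexins 7 rose, while 5 of 6 tested class 3 semaphorins and 6 of 9 tested Eph receptors fell. Of all tested genes 40.6% rose and 47.7% fell. Among genes measured on all 6 arrays, 3 of 3 class 3 semaphorins and 5 of 8 Eph receptors fell. Bars of genes not above background in Magic-F1 cells, such as Robo4, show measured values and not the bound given in the text.

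Among the semaphorins, membrane-bound class 4 members included the gene with the largest rise of the family, and 5 of the 7 secreted class 3 members were called lower. Of 16 tested semaphorins 5 rose, 8 fell and 3 were not called, near the 40.6% and 47.7% of all tested genes, and the family's median was -0.22 (log2). In class 3, 5 of the 6 tested fell and 0 rose, and the median was -1.60 (-1.18 with spike-in scaling and -0.80 with normexp background). Of those 5, Sema3g and Sema3c passed the filter through the control group alone, which favoured a fall, and the 3 class 3 genes measured on all 6 arrays fell. In class 4, 3 of 5 rose and 1 fell, with a median of 0.95 (0.08 with normexp background). In class 6, 1 rose and 2 fell, with a median of -0.31 that turned to 0.11 with spike-in scaling.

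Sema4d, also called CD100, a membrane semaphorin of leukocytes, had log2 levels relative to the 75th percentile of 2.06, 2.05 and 1.98 on the Magic-F1 arrays, against -2.17, -1.92 and -2.42 on the control arrays. The groups lay far apart, and the control arrays varied more than the Magic-F1 arrays. Sema4d rose by a log2 change of 4.20 ± 0.13 (SE, n = 3 each), or 18.4-fold (adjusted p = 4.55e-07, limma), and by 3.19 with normexp background. Sema4a, a class 4 semaphorin known from immune cells, had 1.65, 1.66 and 1.76 in Magic-F1 cells and 0.06, 0.03 and 0.00 in control cells. All Magic-F1 arrays were above all control arrays, by a log2 change of 1.66 ± 0.05 (adjusted p = 4.43e-07). Sema5a, a membrane semaphorin with thrombospondin repeats, had 0.56, 0.46 and 0.51 in Magic-F1 cells and -0.77, -0.75 and -0.67 in control cells. Its arrays were tight within each group, with a log2 change of 1.24 ± 0.05 (adjusted p = 1.92e-06). Sema6d, a transmembrane ligand of Plxna1, rose by 0.81 ± 0.07. Sema4b rose by 0.95 ± 0.09, but by 0.08 and without a call when normexp background was used (adjusted p = 0.149).

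Sema3e, a secreted ligand that binds Plxnd1 without a neuropilin, had the largest measured fall among the semaphorins. Its log2 levels were -4.25, -4.17 and -3.72 on the Magic-F1 arrays and -0.71, -0.70 and -0.53 on the control arrays. No array of either group came near the other group, and the log2 change was -3.40 ± 0.15, or 10.6-fold lower (adjusted p = 2.19e-06). With normexp background its log2 change was -1.87. A second probe of Sema3e was below the background limit on all Magic-F1 arrays and at least 15.3-fold lower (adjusted p = 3.66e-06), with a log2 change of -1.43 under normexp background. Sema3c, a secreted neuropilin ligand, had -6.03, -4.96 and -5.65 in Magic-F1 cells and -2.71, -2.87 and -2.98 in control cells. It passed the background limit on 1 of 3 Magic-F1 arrays, and these spread more widely than the control arrays. Its values on 2 Magic-F1 arrays lay under the lowest signal called well above background, so the fitted log2 change of -2.70 (adjusted p = 0.00011) is no exact size. With these values raised to that signal Sema3c was 4.98-fold lower, and with normexp background its log2 change was -0.77. Sema4f, a membrane semaphorin, had -4.07, -4.38 and -4.25 in Magic-F1 cells and -2.24, -2.06 and -2.40 in control cells. The groups did not overlap, with a log2 change of -2.00 ± 0.12 (adjusted p = 8.2e-06) and -0.90 with normexp background.

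The other class 3 genes changed less. Sema3b fell by 1.52 ± 0.08 and Sema3f, a ligand that uses neuropilin 2, fell by 1.17 ± 0.06 on the log2 scale. Sema3g was below the background limit on all Magic-F1 arrays and at least 2.53-fold lower (adjusted p = 4.73e-05), with a log2 change of -0.49 under normexp background. Sema3a, the ligand named above for rat satellite cells, was dim in both groups. Its log2 levels were -4.87, -4.71 and -4.74 in Magic-F1 cells and -4.39, -4.90 and -4.73 in control cells, and they overlapped. Sema3a was not called (log2 change -0.10 ± 0.14, adjusted p = 0.514), and with normexp background it was -0.21 with a call (adjusted p = 0.00352). The normexp setting adds an offset of 50 to each signal, which puts probes without signal lower on Magic-F1 arrays. Its call of so dim a probe therefore cannot show a fall. The same offset works against rises of dim probes. A rise lost with normexp background, as that of Sema4b, therefore cannot show that the level did not rise. Sema6c fell by 0.88 ± 0.08. Sema6b, at -0.31 ± 0.09, was called (adjusted p = 0.0166) but was 0.11 and not called with spike-in scaling (adjusted p = 0.324). It also lost its call within slide 1 (adjusted p = 0.0759) and without Magic-F1 replicate 1 (0.0545) or 2 (0.0546). Sema4c and Sema5b were not called, at 0.03 ± 0.08 and -0.13 ± 0.08.

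The plexins, the semaphorin receptors, were the family with the most members higher in Magic-F1 cells. All 9 plexins on the array were tested, 7 rose, 1 fell and 1 was not called, where 40.6% of all tested genes rose. Their median log2 change was 1.01, and it was 0.67 with normexp background and 1.43 with spike-in scaling. Macrophage markers were higher on the same arrays for 10 of 11 tested (summed level without Lyz2 1050 to 1100 in Magic-F1 cells against 68.6 to 72.7 in control cells), and their part in the plexin changes was not tested.

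Plxnc1, the receptor of the membrane-anchored Sema7a, had the largest rise of any member. Its log2 levels were 3.33, 3.30 and 3.42 on the Magic-F1 arrays and -2.97, -2.83 and -2.78 on the control arrays. The groups were separated by many times the spread within either, with a log2 change of 6.21 ± 0.07, or 73.9-fold (adjusted p = 2.42e-08). With normexp background the log2 change was 5.03. A second Plxnc1 probe was below the background limit on all control arrays and at least 15.0-fold higher in Magic-F1 cells (adjusted p = 4.84e-08), or 1.52 in log2 change under normexp background. Plxnd1, the receptor of Sema3e, had 4.55, 4.64 and 4.66 in Magic-F1 cells and 0.84, 0.88 and 0.64 in control cells. Every Magic-F1 array was above every control array, and the log2 change was 3.83 ± 0.08, or 14.2-fold (adjusted p = 1.09e-07). Plxna1, which pairs with neuropilins and also binds Sema6d, had 3.66, 3.67 and 3.68 in Magic-F1 cells and 0.43, 0.44 and 0.38 in control cells. The arrays within a group were almost alike, with a log2 change of 3.26 ± 0.04 (adjusted p = 3.32e-08). Plxnb2, a receptor of class 4 semaphorins, rose by 2.75 ± 0.05, with a second probe at 2.53 ± 0.16 (1.81 with normexp background). Smaller rises were those of Plxna3 (1.01 ± 0.09), Plxnb3 (0.91 ± 0.12) and Plxna2 (0.45 ± 0.11).

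Plxnb1, the Sema4d receptor that can associate with MET, was the only plexin called lower. It had -3.44, -3.59 and -3.55 in Magic-F1 cells and -1.72, -1.60 and -1.92 in control cells. These groups did not overlap, with a log2 change of -1.78 ± 0.09, or 3.44-fold lower (adjusted p = 5.1e-06), and -0.92 with normexp background. Plxna4, a receptor for class 3 and class 6 semaphorins, was at 0.04 ± 0.10 and not called. Its sign turned with normexp background, to -0.18 with a call (adjusted p = 0.0102). Plxna4 was dim in both groups, and the normexp offset puts dim probes lower on Magic-F1 arrays, so this call cannot show a fall.

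**Figure D2:**
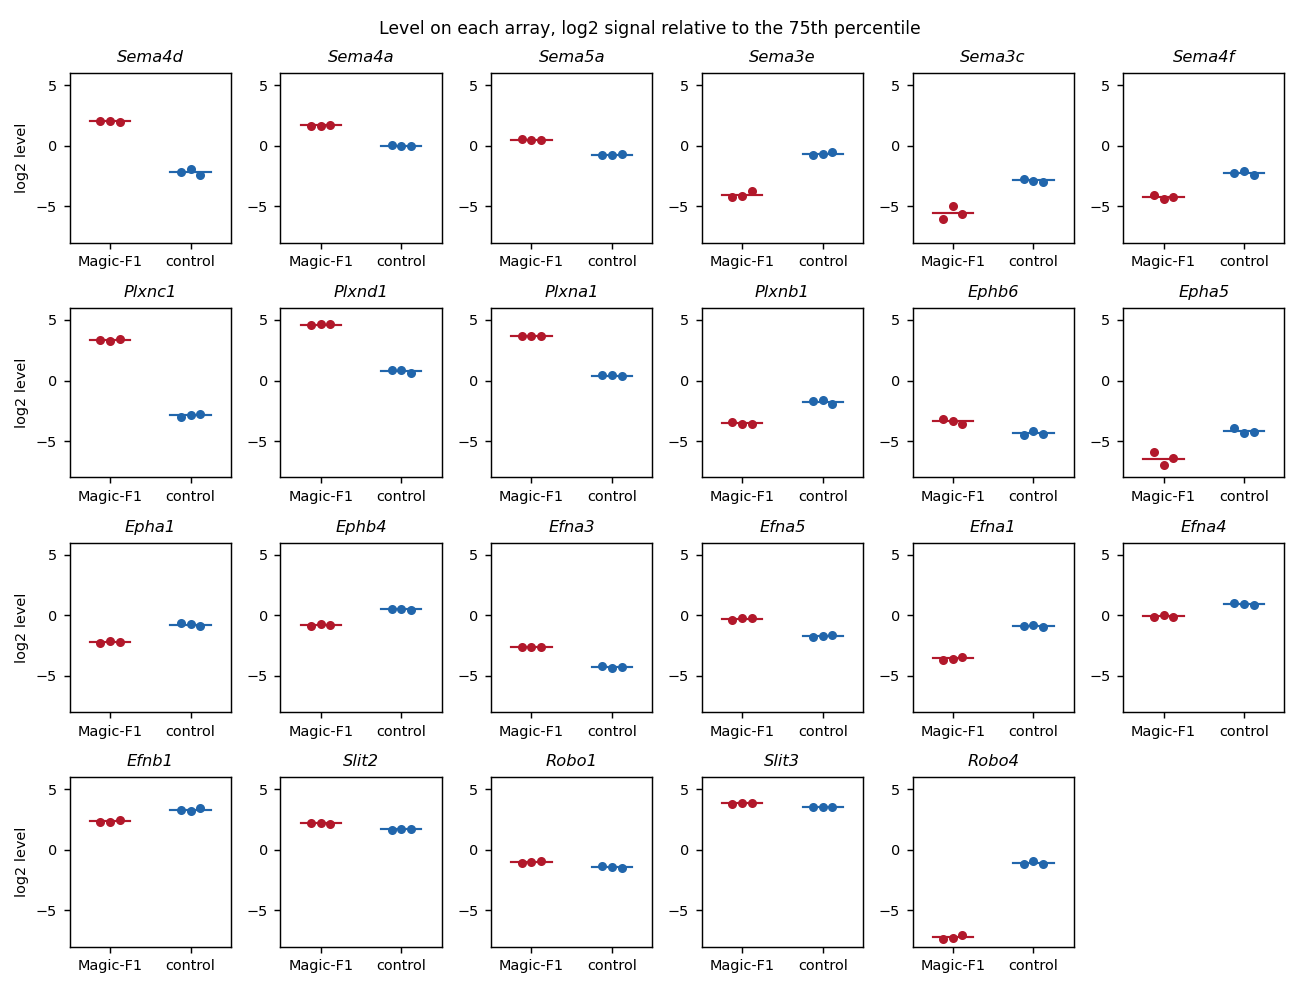
Log2 level relative to the array's 75th percentile (vertical axis) on each of the 3 Magic-F1 arrays (left, red) and 3 control arrays (right, blue) for the 23 members named by rule. Points are arrays and lines the group means, and levels are not comparable between panels because each panel is another probe. In every panel the groups do not overlap, and the distance is widest for Plxnc1 (73.9-fold higher) and Robo4 (at least 18.7-fold lower).

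The 250 bases before the annotated start are printed for Plxnc1 and Plxnd1, as examples of genes that rose, and for Robo4 and Sema3e, which fell. These had the largest fitted rises and falls among called members with a single annotated window. Sema4d, which rose more than Plxnd1, was not among those members. The sequences are those of RefSeq on GRCm38.p6, 5′ to 3′ on the gene's strand. Capitals mark matches to GGGCGG (GC box) or CAGCTG (E-box word), searched on both strands, so CCGCCC is a GC box on the other strand.
Plxnc1, chr10:94944846-94945095, minus strand: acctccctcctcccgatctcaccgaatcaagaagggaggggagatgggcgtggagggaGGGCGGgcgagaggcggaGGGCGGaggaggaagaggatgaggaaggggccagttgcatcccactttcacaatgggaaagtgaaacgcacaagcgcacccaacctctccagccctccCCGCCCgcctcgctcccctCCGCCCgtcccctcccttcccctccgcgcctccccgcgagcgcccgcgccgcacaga
Plxnd1, chr6:115995006-115995255, minus strand: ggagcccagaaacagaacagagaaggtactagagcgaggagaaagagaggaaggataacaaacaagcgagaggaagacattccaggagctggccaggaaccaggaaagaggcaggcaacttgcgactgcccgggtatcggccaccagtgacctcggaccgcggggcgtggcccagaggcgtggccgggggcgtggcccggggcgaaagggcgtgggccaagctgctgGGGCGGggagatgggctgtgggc
Robo4, chr9:37401722-37401971, plus strand: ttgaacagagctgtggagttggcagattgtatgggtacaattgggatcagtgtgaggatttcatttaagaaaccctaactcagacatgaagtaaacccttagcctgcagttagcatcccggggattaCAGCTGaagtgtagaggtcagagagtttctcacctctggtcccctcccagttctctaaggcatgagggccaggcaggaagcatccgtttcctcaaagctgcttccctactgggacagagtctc
Sema3e, chr5:14025026-14025275, plus strand: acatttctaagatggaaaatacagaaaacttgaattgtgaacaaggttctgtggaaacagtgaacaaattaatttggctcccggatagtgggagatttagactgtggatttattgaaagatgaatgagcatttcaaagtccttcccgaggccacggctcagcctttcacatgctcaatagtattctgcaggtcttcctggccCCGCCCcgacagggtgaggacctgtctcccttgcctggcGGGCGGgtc

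Plxnc1 held 4 GC boxes, with first bases at -192, -174, -76 and -57 from the start, and Plxnd1 held 1 at -23. Sema3e held GC boxes at -48 and -9, while Robo4 held no GC box but 1 E-box word at -123. None of these matches overlapped another. Base composition differed as well, with 68.8% G and C in the Plxnc1 window, 64.8% in Plxnd1, 49.6% in Robo4 and 48.0% in Sema3e. A GC box was found in 47 of 67 windows of 51 members (70.1%), against 32.7% of 32851 windows of all genes, and in 76.9% of windows of members called higher and 70.0% of those called lower. CAGCTG was in 16.4% of member windows, against 13.0% of all. The word GAGGAAGT, which the myeloid factor PU.1 is known to bind, was in 0 member windows and in 2.44% of all windows. Letters in a window are a description only.

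Ephrins, the membrane-anchored ligands of Eph receptors, went both ways. Of 7 tested, 2 rose and 3 fell, where 40.6% and 47.7% of all tested genes did, and 2 were not called, with a median log2 change of -0.33 that became 0.09 with spike-in scaling. Efna3, an ephrin held in the membrane by a lipid anchor, had log2 levels of -2.66, -2.61 and -2.64 in Magic-F1 cells and -4.18, -4.33 and -4.28 in control cells. It rose by 1.63 ± 0.06 (adjusted p = 7.25e-07), but by 0.27 with normexp background. Efna5, also lipid-anchored and a ligand of Epha4, had -0.36, -0.26 and -0.27 in Magic-F1 cells and -1.79, -1.74 and -1.64 in control cells. For both genes all Magic-F1 arrays were higher, and Efna5 rose by 1.43 ± 0.06 (adjusted p = 1.64e-06).

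Efna1, a ligand of Epha2, had the largest fall among the ephrins. It had -3.69, -3.58 and -3.45 in Magic-F1 cells and -0.90, -0.84 and -0.96 in control cells. The groups were far apart, with a log2 change of -2.68 ± 0.07, or 6.39-fold lower (adjusted p = 3.19e-07), and -1.49 with normexp background. Efna4 had -0.17, -0.02 and -0.11 in Magic-F1 cells and 0.97, 0.92 and 0.85 in control cells, without overlap. Its log2 change was -1.02 ± 0.06 (adjusted p = 8.85e-06). Efnb1, a transmembrane ephrin, had 2.34, 2.33 and 2.44 in Magic-F1 cells and 3.25, 3.23 and 3.45 in control cells. It fell by 0.94 ± 0.08 on the log2 scale (adjusted p = 4.1e-05), and no array of one group reached the other. Efnb3 was not called, at -0.33 ± 0.24, was called lower with normexp background (-0.28, adjusted p = 0.000592), and turned to 0.09 without a call with spike-in scaling. Its probe was dim, and the normexp offset puts dim probes lower on Magic-F1 arrays, so the normexp call cannot show a fall. Efnb2, the ligand of Ephb4 known from arteries, was not called by its brightest probe (0.22 ± 0.09, adjusted p = 0.0579). That probe was called higher with a replicate block (0.0191), normexp background (0.0107), median scaling (0.00365), spike-in scaling (0.000743) and trend and robust variance (0.0234). The second Efnb2 probe ran the opposite way, as described with the probes.

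Eph receptors were mostly lower in Magic-F1 cells. Of 9 tested, 1 rose, 6 fell and 2 were not called, where 47.7% of all tested genes fell, and of the 8 measured on all 6 arrays 5 fell. The median log2 change was -0.97, and it was -0.72 with normexp background and -0.55 with spike-in scaling. Among EphA receptors 3 of 5 fell and 0 rose, and among EphB receptors 3 of 4 fell and 1 rose. Myogenic markers were lower on the same arrays for 8 of 8 tested (summed level 26.0 to 26.9 in Magic-F1 cells against 428 to 461 in control cells), and their part in the Eph receptor changes was not tested.

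Ephb6, an Eph receptor that lacks kinase activity, was the only one called higher. It had -3.16, -3.33 and -3.58 in Magic-F1 cells and -4.49, -4.15 and -4.42 in control cells. The groups did not overlap, and the log2 change was 0.99 ± 0.14 (adjusted p = 0.000562). With normexp background it was 0.07 without a call (adjusted p = 0.294). The normexp offset works against rises of dim probes, so the lost call cannot show that Ephb6 did not rise. Epha5, known as a receptor of neurons, had -5.92, -6.96 and -6.43 in Magic-F1 cells and -3.92, -4.34 and -4.24 in control cells. None of the Magic-F1 arrays was well above background for Epha5, and the fall was at least 2.20-fold (adjusted p = 0.000283), with a log2 change of -0.54 under normexp background. Epha1, known from epithelia, had -2.26, -2.14 and -2.23 in Magic-F1 cells and -0.68, -0.74 and -0.89 in control cells. All Magic-F1 arrays were lower, by a log2 change of -1.44 ± 0.07 (adjusted p = 3.73e-06). Ephb4, the receptor of Efnb2 known from veins, had -0.87, -0.70 and -0.81 in Magic-F1 cells and 0.54, 0.55 and 0.45 in control cells. Again no values overlapped, with a log2 change of -1.30 ± 0.06 (adjusted p = 3.6e-06). The other receptors that fell were Ephb3 (-1.04 ± 0.07), Ephb2 (-0.97 ± 0.07) and Epha2 (-0.81 ± 0.08). Epha7 at 0.17 ± 0.07 (adjusted p = 0.0505) and Epha4 at 0.11 ± 0.11 (adjusted p = 0.4) were not called, though both were called higher with spike-in scaling (0.59 and 0.53). Epha7 was called higher in further settings, among them quantile normalization (0.0221), median scaling (0.005) and the deposited log2 table (0.0249). With normexp background (0.488) and within slide 1 (0.212) Epha7 had no call.

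Slits and Robos held small rises and 1 large fall. Slit2, a secreted repellent cue, had 2.21, 2.18 and 2.17 in Magic-F1 cells and 1.66, 1.71 and 1.74 in control cells. It rose by 0.48 ± 0.04 (adjusted p = 8.09e-05), which was small in size and still above the spread of the arrays. Slit3, a secreted Slit known also from blood vessels, had 3.81, 3.84 and 3.90 in Magic-F1 cells and 3.55, 3.52 and 3.53 in control cells. The log2 change of Slit3 was 0.32 ± 0.05 (adjusted p = 0.000673), without overlap of the groups. Slit1 was not called, at -0.22 ± 0.11 (adjusted p = 0.108), but was called lower with slide as a block (0.0194), with a replicate block (0.0124) and with normexp background (0.00482). Robo1, the classical Slit receptor, had -1.05, -1.01 and -0.88 in Magic-F1 cells and -1.35, -1.38 and -1.51 in control cells. Its arrays did not overlap either, with a log2 change of 0.44 ± 0.07 (adjusted p = 0.00126).

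Robo4, the Robo of endothelial cells, had the largest fitted fall of any member. Its log2 levels were -7.33, -7.31 and -7.05 on the Magic-F1 arrays and -1.15, -0.95 and -1.16 on the control arrays. On the Magic-F1 arrays it never stood well above background, while it did on all 3 control arrays, so the fall is given as at least 18.7-fold (adjusted p = 5.4e-08). With normexp background its log2 change was -1.80. Endothelial markers were lower on the same arrays for 9 of 11 tested, and the defining genes Pecam1, Cdh5, Tie1, Sox17 and Sox18 were not above background on any Magic-F1 array. The summed level of the endothelial list was nevertheless 19.3 to 21.0 in Magic-F1 cells against 13.7 to 13.8 in control cells, which Vwf carried, and without Vwf it was 2.94 to 3.16 against 12.3 to 12.4. Besides Vwf, Kdr was called higher (0.64), but it was -0.03 and not called with normexp background, whose offset works against rises of dim probes. Their part in the Robo4 change was not tested.

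Ligands and receptors known to bind each other were set side by side for 17 pairings. Sema3e fell by 3.40 while its receptor Plxnd1 rose by 3.83 on the log2 scale, and Sema4a, reported as another ligand of Plxnd1, rose by 1.66. Sema4d rose by 4.20, its receptor Plxnb1 fell by 1.78, and Cd72, the Sema4d receptor of B cells and other leukocytes, rose by 6.07. Sema5a and its receptor Plxnb3 both rose, as did Sema6d and Plxna1. For Sema3a, which was not called, the co-receptor Nrp1 rose by 3.39 and Plxna1, Plxna2 and Plxna3 rose as well. Sema3f fell while its co-receptor Nrp2 rose by 2.71. Efna1 and Epha2 both fell, Efna5 rose with Epha4 not called, and Ephb4 fell with Efnb2 not called. Slit2 and Robo1 both rose, while Robo4, reported to interact with Slit2 and Slit3, fell. Sema7a, Sema6a and Epha3 had no tested probe, so no change is given for the ligand of Plxnc1. These are changes in RNA of each gene, and binding was not measured.

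Partners and signalling genes of these receptors moved in both directions. Among partners of semaphorins and plexins, 15 of 36 tested genes rose and 19 fell, where 40.6% and 47.7% of all tested genes did, with a median log2 change of -0.19. Nrp1, a co-receptor of class 3 semaphorins, had log2 levels of 3.19, 3.20 and 3.22 in Magic-F1 cells and -0.08, -0.12 and -0.34 in control cells, without overlap (log2 change 3.39 ± 0.08, adjusted p = 1.71e-07). A second Nrp1 probe rose by 1.63. Met, the receptor that Magic-F1 activates and a partner of B plexins, fell by 2.64 (adjusted p = 1.86e-07), and by 1.69 with normexp background. Dpysl5, a relative of the collapsin response mediators, was not well above background in Magic-F1 cells and fell at least 5.94-fold (adjusted p = 2.08e-06, log2 change -0.98 with normexp background), and Rnd1, a small GTPase that binds plexins, fell by 3.83 on the log2 scale.

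Among Eph and ephrin partners, 18 of 34 tested genes rose and 13 fell, set against the same 40.6% and 47.7%, with a median log2 change of 0.33. Ptpro, a receptor phosphatase reported to act on Eph receptors, rose by 6.10 (4.97 with normexp background), and Vav3, an exchange factor downstream of Eph receptors, rose by 3.52 (2.92). Grip1, a scaffold that binds B ephrins, was at least 4.73-fold lower (adjusted p = 2.32e-05), and Anks1b, an adaptor, at least 2.05-fold lower (adjusted p = 7.65e-05). With normexp background their log2 changes were -0.79 and -0.53. For Slit and Robo partners 12 of 25 rose and 12 fell, again against 40.6% and 47.7%, with a median of 0.11. Cxcr4, the chemokine receptor whose signalling Slits are known to dampen, rose by 4.66 (4.03), and its ligand Cxcl12 fell by 3.20. Srgap2, a GTPase activator that binds Robo1, rose by 2.69, and Enah, an actin regulator downstream of Robo, fell by 3.55. In the list of other guidance cues, such as netrins and their receptors, 7 of 20 tested genes rose and 9 fell (against 40.6% and 47.7%), with a median of -0.29. Rgmb, a ligand of neogenin, rose by 3.21 with its brightest probe, while a second probe fell by 0.43. Unc5a, a netrin receptor, rose by 2.38 (1.52), and Hjv, a co-receptor of bone morphogenetic proteins related to Rgmb, fell by 2.33. Dscaml1, a cell adhesion molecule, was at least 3.00-fold lower (adjusted p = 0.000281), with a log2 change of -0.72 under normexp background.

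Several probes per gene allowed a check within genes. Of 31 members with several probes, 14 had more than 1 tested probe, and the range of log2 change between probes of a gene had a median of 0.69 over these 14, against 0.51 over 4882 such genes of the array. None of the 14 had probes called in opposite directions in the main fit. With normexp background the brighter Efnb2 probe was called higher (0.20, limma adjusted p = 0.0107) and the dimmer lower (-0.53, 3.34e-06). Spike-in scaling likewise called them higher (0.64, 0.000743) and lower (-1.94, 0.000616). The range was 2.58 for Efnb2, 1.90 for Plxna1, 1.27 for Plxnc1, 1.07 for Sema5b and 1.00 for Epha4. The smallest ranges were those of Plxna3 (0.07) and Sema4c (0.09). The dimmer Plxna3 probe was below the background limit on all control arrays and at least 1.82-fold higher. With normexp background, whose offset works against rises of dim probes, that probe was at -0.04 and not called (adjusted p = 0.473). With the control level below the background limit, the range of Plxna3 rests on a fitted size and not on a measured one. The first 30 bases of the 60-base probes of Efnb2, Plxna1 and Epha4, whose call or size depended on the probe in use, are printed from the deposited files in lower case, with mm9 positions of the whole probe.
Efnb2, brighter probe, chr8:8618177-8618236: gtcatcggttggctacgttttggttctatg
Efnb2, dimmer probe, chr8:8619222-8619281: ttagagtccttgagatggaagtaagttatg
Plxna1, brighter probe, chr6:89266528-89266587: agaaagatatttttaaggtgaagcccatga
Plxna1, dimmer probe, chr6:89269191-89269251: ctcgccttcctctccctgccatgcaggcca
Epha4, brighter probe, chr1:77365747-77365806: tgcctccgatacacaatgctaaagtgacat
Epha4, dimmer probe, chr1:77364688-77364747: ccaataaatatttattgcattctgacaggg

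The brighter Efnb2 probe had log2 levels of 1.15, 1.19 and 1.35 in Magic-F1 cells and 0.98, 0.89 and 1.16 in control cells, which overlapped. The dimmer probe was below the background limit on all Magic-F1 arrays and at least 2.55-fold lower (adjusted p = 0.000265), with a log2 change of -0.53 under normexp background. In the files the brighter probe starts at base 3521 of the transcript and the dimmer probe at base 2476. The brighter Plxna1 probe rose by 3.26 and the dimmer by 1.36, which had -0.09, -0.32 and -0.23 in Magic-F1 cells and -1.47, -1.67 and -1.56 in control cells. The brighter Epha4 probe was not called, whereas the dimmer rose by 1.11 ± 0.18 (adjusted p = 0.00118), or by 0.24 with normexp background. For Sema5b the dimmer probe was at least 2.19-fold lower (adjusted p = 0.000504, log2 change -0.43 with normexp background) while the brighter was not called, and for Sema6c the dimmer was not called (-0.07) while the brighter fell. Exon and UTR annotation of the probes was not used here.

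**Figure D3:**
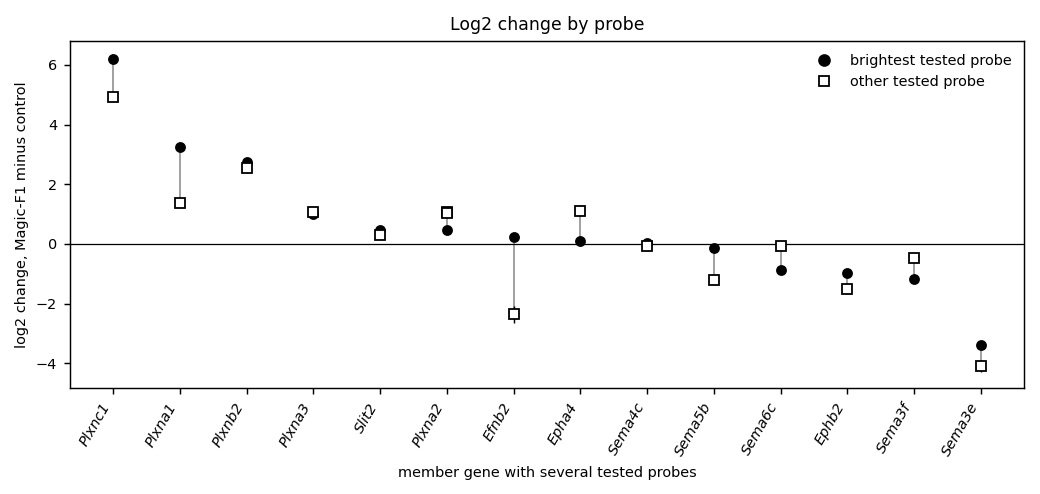
Log2 change, Magic-F1 minus control (vertical axis), of each tested probe of the 14 members with several tested probes. Filled circles are the brightest probe, open squares the others, and whiskers are standard errors. The probes lie on opposite sides of 0 for Efnb2 (0.22 and -2.36) and Sema4c (0.03 and -0.06). In the main fit, which is shown, no gene has calls in both directions.

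Among the 12 members without a tested probe, 8 had no probe well above background on any array, namely Efna2, Epha10, Epha6, Epha8, Ephb1, Robo2, Sema3d and Sema4g. Epha3 passed the background limit on 0 Magic-F1 arrays and 2 control arrays, and Robo3 on 2 Magic-F1 arrays and 0 control arrays. Sema6a passed it on 1 Magic-F1 array and 2 control arrays, and Sema7a on 1 Magic-F1 array and 0 control arrays. In all, 38 member probes were well above background on 0 of 6 arrays and 50 on all 6. For a gene tested because it was measured in a single group, as Robo4, Epha5 and Sema3g were, the filter itself favoured a difference. Efnb3 (2 of 3 Magic-F1 arrays above background) and Sema3a (2 of 3 control arrays) also passed through 1 group and were not called. Of the 46 tested genes, 40 had a probe well above background on all 6 arrays.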

How the data were processed

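Total RNA of 3 Magic-F1 and 3 control samples was measured on 6 single-colour Agilent arrays (design 014868, Cy3 dye), per the labels and file headers. The authors deposited scanner intensity values, a background-subtracted processed signal from Agilent Feature Extraction 10.5.1.1 per the file headers, and a table of log2 values per spot. That log2 table equals the log2 processed signal for 4 arrays (within 1e-06) and holds other values for both arrays numbered 1 (SD of the difference 0.456 and 0.472), so which scale or centring was used there is unknown. Its log2 column medians over all spots were 3.34, 3.29 and 3.40 for Magic-F1 and 3.16, 3.16 and 3.23 for control.

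Control spots were left out, 59 to 89 outlier spots per array were set to missing, the array's own 75th percentile was subtracted from its log2 processed signals, and spots of a probe were averaged. A fold is a power of 2 of the log2 change. A probe was tested if 1 group or both had it well above background throughout, on 3 of 3 arrays. Groups were compared with limma 3.58.1 in R 4.3.3 (lmFit and eBayes, group as the only term, 2-sided, Benjamini-Hochberg adjustment over 21190 probes at 0.05). The test was tried on simulated arrays with independent noise. It called 64% of probes given a log2 change of 0.5, 80% at 1, 98% at 2 and 82% at -1. Few probes were changed there, while most differ in these data, so these shares do not measure the test here. "At least N-fold" compares the bright group's mean with a floored mean of the dim group, in which an array counts with the lowest signal called well above background unless the probe's own signal is higher. Some named falls are of genes below background, whose fitted size sets no rank. With 3 arrays a group, their number limits the precision, and the median residual SD was 0.093 (log2). Of the member probes, 82 were named through their accession in a RefSeq table of GRCm38.p6, each with the name in the files, and 23 kept the files' name.

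Members, gene lists and pairings were chosen with earlier results of these data known. Per-array values are given for up to 3 called genes with the largest rise and 3 with the largest fall of each family, and from each partner list the 2 called genes with the largest fitted change in each direction are named, with Nrp1, Nrp2 and Met. Normexp background is given where it made a fold over 1.5 times smaller or lost a call. Replicates 1 and 3 lay on slide 1 and replicate 2 on slide 2 in both groups. Same-numbered arrays had correlations of -0.003, 0.108 and 0.069 in their deviations from the group means, so the numbers were not taken as pairs.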

Additional observations from a re-analysis of the deposited data

How the results depend on the processing

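Of the 37 called members, 33 kept their direction and call under all 20 alternatives, and 34 under all that keep the probe. The alternatives reuse the same arrays, and the like share over all called genes was not counted, so this is no trait of the families. The number called higher was 10 in place of 18 when at least 2-fold was also required, and 14 in place of 19 were then lower. Under the other alternatives the member genes called ranged from 17 higher (normexp background) to 24 (spike-in scaling), and from 15 lower (only probes above background on all 6 arrays) to 24 (normexp). Leaving out each array in turn gave 18 to 19 higher and 18 to 20 lower. Calls were lost for Ephb6 and Sema4b with normexp background, for Sema6b within slide 1, and for Sema6c with its dimmest probe. The probes of Ephb6 and Sema4b were dim, and the normexp offset works against rises of dim probes. Signs turned, with a call in at least 1 of the settings compared, for Efnb2, Plxna4, Sema5b and Sema6b. Efnb2 turned with the mean of its probes (-1.07) or its dimmest probe (-2.36), and Sema5b (0.29) and Sema6b (0.11) with spike-in scaling. The cause of these turns was not tested. Plxna4 turned with normexp (-0.18), whose offset puts dim probes lower on Magic-F1 arrays. For 6 uncalled members the sign turned without a call, as for Slit1 (0.20), Sema3a (0.32) and Efnb3 (0.09) with spike-in scaling and Epha4 (-0.07) with normexp. Partner genes called lower were 12 in place of 19 for semaphorins and plexins and 8 in place of 13 for Ephs and ephrins with spike-in scaling. Folds of 13 called members were over 1.5 times smaller with normexp background. The titles' numbers were not taken as pairs, and with a replicate block 19 member genes were higher and 20 lower (8710 and 9833 of all probes). Dim probes have only bounds, and 3 arrays a group limit the precision.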
